A study of Mus musculus with 12 samples.

Results

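The effect of losing hepatocyte RXRα was taken over both diets at once, by setting 6 RXRα-KO livers against 6 wild type livers of the same 12 arrays and averaging over normal chow and retinoic acid. The RXRα-KO side held 3 livers of mice on the normal diet (KO) and 3 of mice fed all-trans retinoic acid (RA) at 150 mg per kg of diet for 7 days (KO_RA). The wild type side held 3 livers on the normal diet (WT) and 3 on RA (WT_RA). All were from male C57BL/6 mice, 12 weeks old. The KO mice carried loxP sites around the fourth exon of Rxra, which encodes the DNA binding domain, and Cre under the albumin promoter, so the receptor was altered in hepatocytes only and a truncated protein with its ligand binding domain could still be made. Each array measured 1 liver on an Affymetrix mouse genome array, and the values were log2 levels after robust multi-array averaging (RMA), a background correction, quantile normalization and summary of each probe set. Of 22690 probe sets, the one with the highest mean was kept for each gene, which left 12393 genes.

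RXRα is a nuclear receptor that works mainly as the common partner of other receptors. It pairs with the retinoic acid receptors, PPARα, LXR, FXR, CAR, PXR and the thyroid hormone receptor on paired copies of a short DNA element. In hepatocytes PPARα governs fatty acid oxidation, LXR and FXR govern sterols and bile acids, and CAR and PXR govern the enzymes that clear drugs and steroids. RA is a ligand of the retinoic acid receptors, and its breakdown by Cyp26a1 is itself induced through them.

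The genotype was one coefficient of a linear model fitted with limma, with the diet as the other (9 residual degrees of freedom), and a gene was called at a Benjamini-Hochberg adjusted p under 0.05 over all genes. Changes are RXRα-KO minus wild type on the log2 scale with the standard error (SE) of that model, n = 6 arrays on each side. A gene was gained where this model called it and neither single-diet contrast (KO minus WT, KO_RA minus WT_RA) did. The labels call the arrays biological replicates. Array medians ranged between 6.26 and 6.35, lower quartiles between 4.87 and 5.02 and rank correlations within groups between 0.976 and 0.994. KO 1 and WT_RA 3 stood apart, with 9.12 and 9.40 at the 3′ Actb control probe set, against 12.13 to 12.93 on the other arrays. Leaving both out gave 484 called genes, 385 of them among those called with all arrays. The 17 measured genes of the hepatocyte marker list had summed levels of 17.06 to 17.23 on RXRα-KO arrays and 17.09 to 17.32 on wild type arrays (log2 of the sum of linear levels), and 0 of them was called by limma (3 had an unadjusted p under 0.05).

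The targeted gene was not lower in the RXRα-KO livers. Rxra read 10.11, 10.66 and 10.84 in KO, 10.91, 10.76 and 10.85 in KO_RA, 10.82, 10.51 and 10.37 in WT, and 10.49 at most with a mean of 10.23 in WT_RA. The sides overlapped, and the change was 0.29 ± 0.15 (limma adjusted p = 0.301), with 0.28 ± 0.14 at the other Rxra probe set. No source used here places these probe sets relative to the removed exon, and their levels therefore test neither the allele nor the sample labels. The partner isotypes Rxrb and Rxrg changed by -0.08 ± 0.08 and 0.04 ± 0.08, neither passing the test.

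Over both diets 577 genes were called, 4.66% of those tested. Of these, 158 were higher (1.27%) and 419 were lower (3.38%) in RXRα-KO livers, and 2619 genes had an unadjusted p under 0.05. A further quantile normalization moved this split to 210 higher and 294 lower, and leaving out WT_RA 1, WT_RA 2, KO 3, KO_RA 1 or KO_RA 3 gave 323 to 377 called genes. On 388 genes (3.13%) all 6 RXRα-KO arrays lay on one side of all 6 wild type arrays, and 309 of these were called. The KO minus WT contrast called 163 genes (1.32%) and the KO_RA minus WT_RA contrast 490 genes (3.95%). Both contrasts use the same 12 arrays as the comparison over diets, so their counts are not independent of it. All 577 genes had the same sign in both diets, and 73 changed by at least 1 on the log2 scale. Opposite effects cancel in the model that chose these genes, so the shared sign is no separate evidence. On 19 of the 577 genes the mean of 1 genotype lay below 4.94, the lower quartile of all values, and on 11 both means did. Detection calls were not used here, so for levels that low the log2 difference is given without a fold and may understate the change.

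On this scale the largest rise was that of Aqp4, a water channel best known from brain and kidney. Aqp4 read between 7.81 and 9.04 (median 8.42) on RXRα-KO arrays, against 3.59 to 5.89 (median 4.64) on wild type arrays, where the RA-fed mice held the lowest 3 values. The sides did not overlap, and the change was 3.76 ± 0.32 (adjusted p = 7.97e-05), with a wild type mean of 4.66, below the lower quartile. The other Aqp4 probe set changed by 2.05 ± 0.41. Sult1e1, the sulfotransferase that inactivates oestrogens, read 7.43 to 10.55 (median 8.48) on RXRα-KO arrays, against 4.19 to 6.99 (median 4.93) on wild type arrays. It was higher in RXRα-KO livers without overlap (3.61 ± 0.42, adjusted p = 0.000458), and its wild type median lay at the lower quartile.

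Among lipid enzymes, Scd2, a stearoyl-CoA desaturase that is low in adult liver, was also higher in RXRα-KO livers. Its level was 7.10 to 9.09 (median 8.38) on RXRα-KO arrays, against 4.78 to 5.77 (median 5.18) on wild type arrays (2.90 ± 0.33, adjusted p = 0.000434). Ces2a, a carboxylesterase of the endoplasmic reticulum, lay between 10.53 and 11.91 (median 10.87) on RXRα-KO arrays, against 7.80 to 9.83 (median 8.37) on wild type arrays (2.57 ± 0.32, adjusted p = 0.000763). Neither gene overlapped between the sides. Apoa4, an apolipoprotein of triglyceride-rich particles, rose by 1.50 ± 0.17 (11.81 to 12.84 on RXRα-KO arrays, 10.34 to 11.54 on wild type arrays).

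The other rises of this rank came from several kinds of gene. Pcp4l1 rose by 2.18, Tff3, a secreted trefoil peptide, by 1.76, Rdh16f2, of the retinol dehydrogenase family, by 1.61, Asns, asparagine synthetase, by 1.50, Dnase2a, a lysosomal nuclease, by 1.47, and Tspyl4 by 1.29. The adjusted p of these 6 ranged from 0.000492 for Pcp4l1 to 0.0086 for Asns. The rise with the smallest adjusted p was that of Evc, a protein of the primary cilium, which read 6.48 to 6.91 on RXRα-KO arrays and 5.31 to 5.78 on wild type arrays (1.19 ± 0.09, adjusted p = 3.51e-05). A second Evc probe set changed by 0.13 ± 0.08, so the rise belonged to 1 of its 2 probe sets. Csad, the enzyme that leads to taurine, had a change of 1.98 ± 0.38 (adjusted p = 0.0117) with overlap between the sides.

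**Figure D1:**
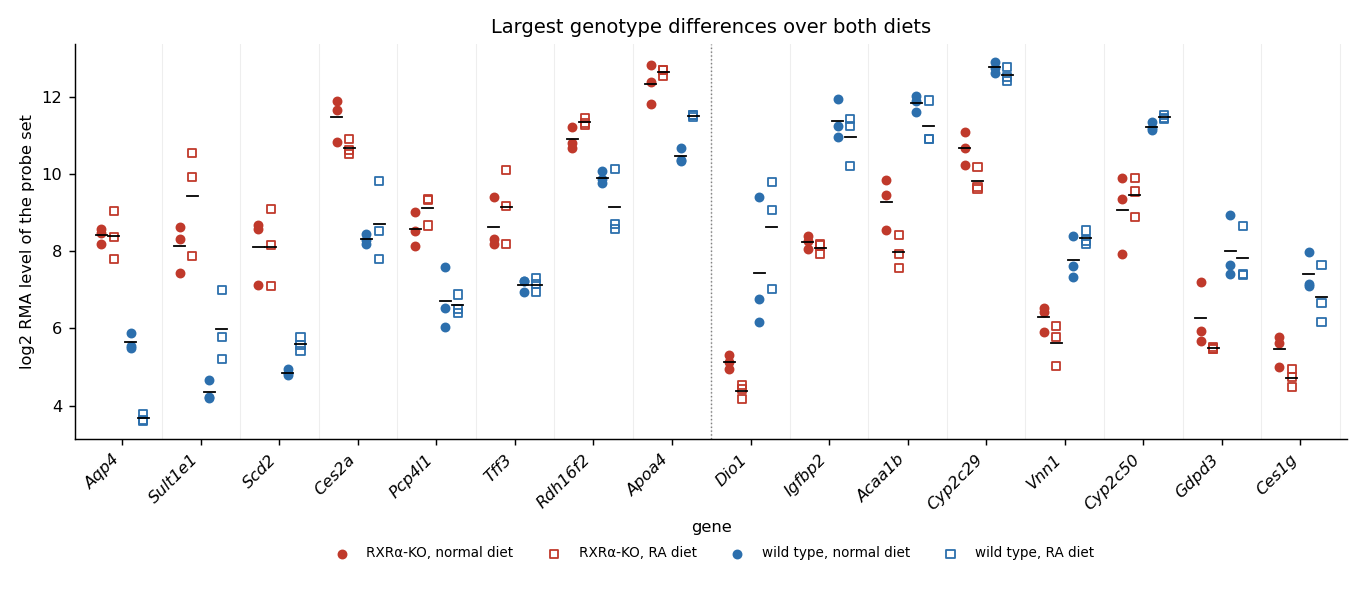
Log2 RMA level (vertical axis) of the 8 largest rises (left of the dotted line) and the 8 largest falls without overlap, by gene. Red points are RXRα-KO arrays and blue points wild type arrays, filled for the normal diet and open for RA, and black bars are means of 3 arrays. For Aqp4 the red points lie between 7.81 and 9.04 in both diets, while the blue points are lower on RA than on the normal diet.

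Igfbp2, which binds insulin-like growth factors in plasma, was among the largest falls. It read 8.27, 8.39 and 8.06 in KO and 7.93, 8.15 and 8.18 in KO_RA, against 11.94, 10.97 and 11.24 in WT and 11.42, 11.24 and 10.21 in WT_RA. The sides stood apart in both diets, and the change was -3.01 ± 0.20, or 8.05-fold lower in RXRα-KO livers (adjusted p = 2.12e-05). Dio1, the deiodinase that activates thyroid hormone, had the largest fall on the log2 scale, -3.28 ± 0.59 (adjusted p = 0.00717). Its values were 4.17 to 5.31 (median 4.74) on RXRα-KO arrays, with a mean of 4.76 below the lower quartile, against 6.17 to 9.79 (median 8.04) on wild type arrays. The wild type values of Dio1 spread over more than 3 log2 units, and none reached down to the highest RXRα-KO value.

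Several of the largest falls were cytochrome P450 genes of the Cyp2c cluster, whose enzymes oxidize arachidonic acid and drugs. Cyp2c29 read 9.61 to 11.10 (median 10.21) on RXRα-KO arrays, against 12.41 to 12.91 (median 12.69) on wild type arrays (-2.42 ± 0.17, adjusted p = 2.12e-05). Cyp2c50 read 7.94 to 9.91 on RXRα-KO arrays and 11.15 to 11.53 on wild type arrays (-2.09 ± 0.27, adjusted p = 0.000763), and Cyp2c37 read 3.37 to 4.64 on RXRα-KO arrays and 5.63 to 6.84 on wild type arrays (-2.02 ± 0.18, adjusted p = 8.38e-05), with all 6 RXRα-KO values below the lower quartile. None of these genes overlapped between the sides. Members of this cluster are close in sequence, and how far their probes share transcripts was not tested. Of 15 measured genes of Cyp2c and of epoxide hydrolysis, 0 rose and 8 fell (53.3%). Over all genes 1.27% were called higher and 3.38% lower. The median change of the list was -0.34, beside 0.02 over all genes. The other called members were Cyp2c54 (-1.56), Cyp2c38 (-0.72), Cyp2c70 (-0.37), which makes muricholic acids, Cyp2j5 (-0.30) and the soluble epoxide hydrolase Ephx2 (-0.34). Ephx2 was also counted with the peroxisomal genes. A dimmer Cyp2j5 probe set changed by -0.37 ± 0.46, with -1.25 on the normal diet and 0.51 under RA. That probe set read 7.06 on KO 1 and 7.09 on WT_RA 3, the arrays that stood apart, against 8.55 or more on the others. Cyp2j5 was not called without WT 2, WT_RA 1, WT_RA 2 or KO_RA 1 (adjusted p up to 0.0673), and Ephx2 not without WT_RA 1, WT_RA 2 or KO_RA 1 (up to 0.0539).

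The remaining large falls included enzymes of peroxisomes and of ester hydrolysis. Acaa1b, the peroxisomal thiolase that ends each round of chain shortening, read 7.56 to 9.85 (median 8.48) on RXRα-KO arrays, against 10.91 to 12.04 (median 11.74) on wild type arrays (-2.92 ± 0.26, adjusted p = 8.38e-05). Decr2, the peroxisomal dienoyl-CoA reductase, read 7.12 to 8.58 on RXRα-KO arrays and 9.34 to 10.51 on wild type arrays (-2.01 ± 0.22, adjusted p = 0.00036). Both were lower on every RXRα-KO array than on any wild type array. Vnn1, the pantetheinase that recycles coenzyme A breakdown products, fell by 2.11 ± 0.26, and the carboxylesterase Ces1g by 2.02 ± 0.24. Gdpd3, a phosphodiesterase of lysophospholipids, fell by 2.03 ± 0.33 and Perp, a membrane protein of cell junctions, by 1.77 ± 0.18, each without overlap (adjusted p between 0.000174 and 0.00377 for these 4 genes). All genes of the preceding paragraphs on the largest changes were still called when any single array was left out, except the Cyp2j5 and Ephx2 calls named with their arrays.

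More PPARα targets fell than rose in RXRα-KO livers. Of 35 measured PPARα targets outside the oxidation pathways, 1 rose and 10 fell (median change -0.31). That is 28.6% called lower and 2.86% called higher, beside 3.38% and 1.27% of all genes. Aldh3a2, which clears fatty aldehydes, read 7.73 to 8.17 (median 7.93) on RXRα-KO arrays, against 8.87 to 10.27 (median 9.64) on wild type arrays (-1.64 ± 0.20, adjusted p = 0.000516). Plin5, a coat protein that ties lipid droplets to mitochondria, fell by 1.32 ± 0.23, and Retsat, retinol saturase, by 1.05 ± 0.21. Fitm1, a membrane protein of lipid droplet formation, read 6.75 to 7.07 on RXRα-KO arrays and 7.70 to 8.05 on wild type arrays (-0.95 ± 0.07, adjusted p = 3.51e-05). The single riser was Apoa4. Ppara itself could not be read on all arrays alike, since it lay at 6.35 on KO 1 and 5.92 on WT_RA 3, the 2 arrays that stood apart, against 9.18 or more on the others. Its change was 0.03 ± 0.81. Without those arrays the PPARα target list had 1 riser and 11 fallers.

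The calls on peroxisomal and mitochondrial oxidation genes were all falls. Of 44 measured peroxisomal genes 0 rose and 11 fell (25%, median -0.16), and of 29 genes of mitochondrial fatty acid oxidation and ketone body synthesis 0 rose and 9 fell (31%, median -0.25), beside 3.38% of all genes called lower. In peroxisomes, next to Acaa1b and Decr2, the isomerase Eci2 fell by 1.10 ± 0.15 and Ech1, which handles double bonds at odd positions, by 0.77 ± 0.13. Slc27a2, the very long-chain fatty acid transporter and ligase, read 12.05 to 12.29 on RXRα-KO arrays and 12.58 to 13.12 on wild type arrays (-0.71 ± 0.08). In mitochondria Slc25a20, the carnitine-acylcarnitine carrier, read 9.31 to 9.67 on RXRα-KO arrays and 9.98 to 10.46 on wild type arrays (-0.77 ± 0.10), and the isomerase Eci1 fell by 0.68 ± 0.09. Their adjusted p ranged from 0.000458 for Slc27a2 to 0.00568 for Ech1, and of these 5 genes only Ech1 overlapped between the sides. The fatty acid omega-hydroxylases of the Cyp4 family, also PPARα targets in mouse liver, had 0 called by limma of 10 measured (median -0.02, 2 with an unadjusted p under 0.05).

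The 3 lists were searched for the element that PPARα and RXRα bind, a direct repeat of AGGTCA with any 1 base between the copies (at most 2 mismatches in all, both strands). RefSeq promoters of build GRCm38.p6, covering 250 bases before and 50 after the start, were matched for 24 of the 29 fallers of these lists, with 27 promoters. Of these 3 (11.1%) held the direct repeat and 6 (22.2%) an exact single AGGTCA, which can be part of a direct repeat. The shares over all 32851 promoters of the table were 3.86% and 16.3%. Over the 261 promoters of gained genes they were 1.92% and 11.1%. The promoters with a match are shown because these genes fell in RXRα-KO livers and are PPARα targets or oxidation genes, with the matched stretch in capitals: Acot12, a cytosolic acyl-CoA thioesterase listed with the peroxisomal genes (chr13:91741271-91741570, + strand, match on the opposite strand 110 bases before the start), Creb3l3, a membrane-bound transcription factor of fasting liver (chr10:81092542-81092841, - strand, match on the gene's strand 209 bases before the start), and Slc25a20 (chr9:108661886-108662185, + strand, match on the gene's strand 6 bases after the start).
Acot12: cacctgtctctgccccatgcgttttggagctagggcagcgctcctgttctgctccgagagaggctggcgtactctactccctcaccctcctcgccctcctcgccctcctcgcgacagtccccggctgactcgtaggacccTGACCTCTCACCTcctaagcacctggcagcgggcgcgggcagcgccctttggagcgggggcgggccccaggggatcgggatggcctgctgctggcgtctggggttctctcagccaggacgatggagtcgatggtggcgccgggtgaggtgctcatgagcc
Creb3l3: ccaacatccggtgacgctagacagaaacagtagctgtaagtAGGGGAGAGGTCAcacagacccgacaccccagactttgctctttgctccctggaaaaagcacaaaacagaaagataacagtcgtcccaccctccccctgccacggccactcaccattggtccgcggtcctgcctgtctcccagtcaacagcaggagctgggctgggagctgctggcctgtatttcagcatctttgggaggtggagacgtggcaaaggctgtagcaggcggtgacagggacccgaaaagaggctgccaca
Slc25a20: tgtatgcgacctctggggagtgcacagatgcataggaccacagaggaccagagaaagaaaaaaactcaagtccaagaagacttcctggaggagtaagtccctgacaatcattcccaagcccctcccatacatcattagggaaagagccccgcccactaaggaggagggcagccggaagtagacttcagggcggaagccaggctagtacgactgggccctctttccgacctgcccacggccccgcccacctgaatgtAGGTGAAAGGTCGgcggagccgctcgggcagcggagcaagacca
The Acot12 match differed from the repeat at 1 base and the other matches at 2 bases each. Another promoter of Creb3l3 (chr10:81098823-81099122, - strand) held no match. A match describes these letters only, and binding was not measured.

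Acot12 read 9.05, 8.93 and 9.12 in KO and 9.02, 9.31 and 9.18 in KO_RA, against 9.76, 9.51 and 9.40 in WT and 9.78, 9.73 and 9.37 in WT_RA. The sides did not overlap. The change was -0.49 ± 0.09 (adjusted p = 0.00807), and neither diet called it alone (adjusted p = 0.0801 and 0.0777). Creb3l3 changed by -0.45 ± 0.09 (adjusted p = 0.0129) and was called under RA but not on the normal diet. Slc25a20 was called in both.

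The calls on bile acid and fat storage genes were falls, beside 3.38% of all genes called lower. As 1.27% of all genes were called higher, 0 risers in lists this short is no result. These lists share fallers with the lists above, so their shares are not separate results. Slc27a2, Amacr and Hsd17b4 were also counted as peroxisomal genes and Cyp2c70 in the Cyp2c list. Slc22a5, Plin5, Mgll and Fitm1 were also counted as PPARα targets. Of 18 genes of bile acid synthesis 5 fell (27.8%), among them Slc27a2, Amacr (-0.42), which racemizes bile acid precursors, and Cyp2c70. Of the 18 changes 8 were above 0 and 10 below (median -0.10). Of 26 bile acid and sterol transporters and FXR targets 4 fell (15.4%), with 12 changes above 0 and 14 below (median -0.06). Abcc3, the export pump of the sinusoidal membrane, read 7.51 to 8.58 on RXRα-KO arrays and 9.25 to 10.13 on wild type arrays (-1.58 ± 0.19, adjusted p = 0.000492). Abcb4, the canalicular phospholipid floppase, changed by -0.68 ± 0.10, Abcg2, a canalicular pump, by -0.64 ± 0.13, and Slc22a5, the carnitine transporter, by -0.82 ± 0.15. Of 33 genes of triglyceride synthesis, lipolysis and droplets 7 fell (21.2%, median -0.16). Abhd6, a monoacylglycerol hydrolase, fell by 1.06 ± 0.14, Gpat4, which starts glycerolipid synthesis, by 0.81 ± 0.11 with -0.06 ± 0.09 at a dimmer probe set, and Hsd17b11, a droplet-bound dehydrogenase, by 0.78 ± 0.11. A dimmer Hsd17b11 probe set changed by -0.55 ± 0.87 over both diets. It went in opposite directions, with -3.44 on the normal diet and 2.34 under RA. Of 22 genes of cholesterol synthesis and uptake 0 were called (median 0.21), 3 of them had an unadjusted p under 0.05, and 2 were called without KO 1.

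Lists on fatty acid building held calls in both directions, beside 1.27% of all genes called higher and 3.38% called lower. Of 20 elongases and desaturases 1 rose (5%), Scd2, and 3 fell (15%). Elovl2, which elongates polyunsaturated fatty acids, fell by 0.92 ± 0.08 (9.46 to 10.06 on RXRα-KO arrays, 10.28 to 11.14 on wild type arrays) and Hacd1, a dehydratase of the elongation cycle, by 1.07 ± 0.15. Elovl3, which is higher in male liver, changed by -2.00 ± 0.33, and its values overlapped only over both diets (6.16 to 9.60 on RXRα-KO arrays, 7.24 to 11.82 on wild type arrays). Within each diet the genotypes stood apart. Elovl3 read 8.20 to 9.60 in KO against 11.59 to 11.82 in WT, and 6.16 to 6.80 in KO_RA against 7.24 to 8.35 in WT_RA. Of 25 lipogenic genes 2 rose (8%), Acaca (0.43 ± 0.08) and Pklr (0.86 ± 0.18), and 1 fell (4%), Me1 (-0.77 ± 0.17). The Me1 call was absent without WT_RA 1 or KO_RA 3 (adjusted p up to 0.0562). Of 38 phospholipid genes 1 rose, Pla2g6, and 4 fell, and of 21 LXR targets 1 rose and 2 fell, Lpcat3 (-0.44) and Abcc3. Of 32 genes of lipoproteins and uptake 3 rose and 3 fell. The risers were Apoa4, Lrp2 (1.0 ± 0.10, with both means below the lower quartile of 4.94) and Vldlr (0.69 ± 0.16). Vldlr was not called without any one of WT_RA 1, WT_RA 2, WT_RA 3, KO 3, KO_RA 1, KO_RA 2 or KO_RA 3 (adjusted p up to 0.0746).

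Drug, steroid and retinoid enzymes were split as well, beside 1.27% of all genes called higher and 3.38% called lower. Of 27 targets of CAR and PXR 3 rose (Sult1e1, Ces2a and Gstm2) and 3 fell, 11.1% each. Cyp2b10, the P450 most used as a CAR readout, read 5.94 to 6.73 (median 6.18) on RXRα-KO arrays, against 7.02 to 8.37 (median 7.48) on wild type arrays (-1.44 ± 0.20, adjusted p = 0.00137). Of 13 carboxylesterases 2 rose, Ces2a and Ces2g (0.88), and 2 fell, Ces1g and Ces1e (-1.27), 15.4% each. Of 50 conjugation enzymes 6 rose and 6 fell (12% each), with Sult1e1 the largest rise and the glucuronosyltransferase Ugt2b1 the largest fall (-1.02 ± 0.13). Of 26 genes of steroid hormone metabolism 3 rose (11.5%) and 4 fell (15.4%). Of 39 genes of retinoid handling 1 rose (2.56%), Rdh5, and 4 fell (10.3%). Of the 39 changes 25 were above 0 and 14 below (median 0.08). Rdh16f2, which rose by 1.61, was not on this list. Rdh16, a retinol dehydrogenase, read 5.96 to 7.38 on RXRα-KO arrays and 7.51 to 8.57 on wild type arrays (-1.19 ± 0.21, adjusted p = 0.00705), next to Retsat and Rdh9.

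**Figure D2:**
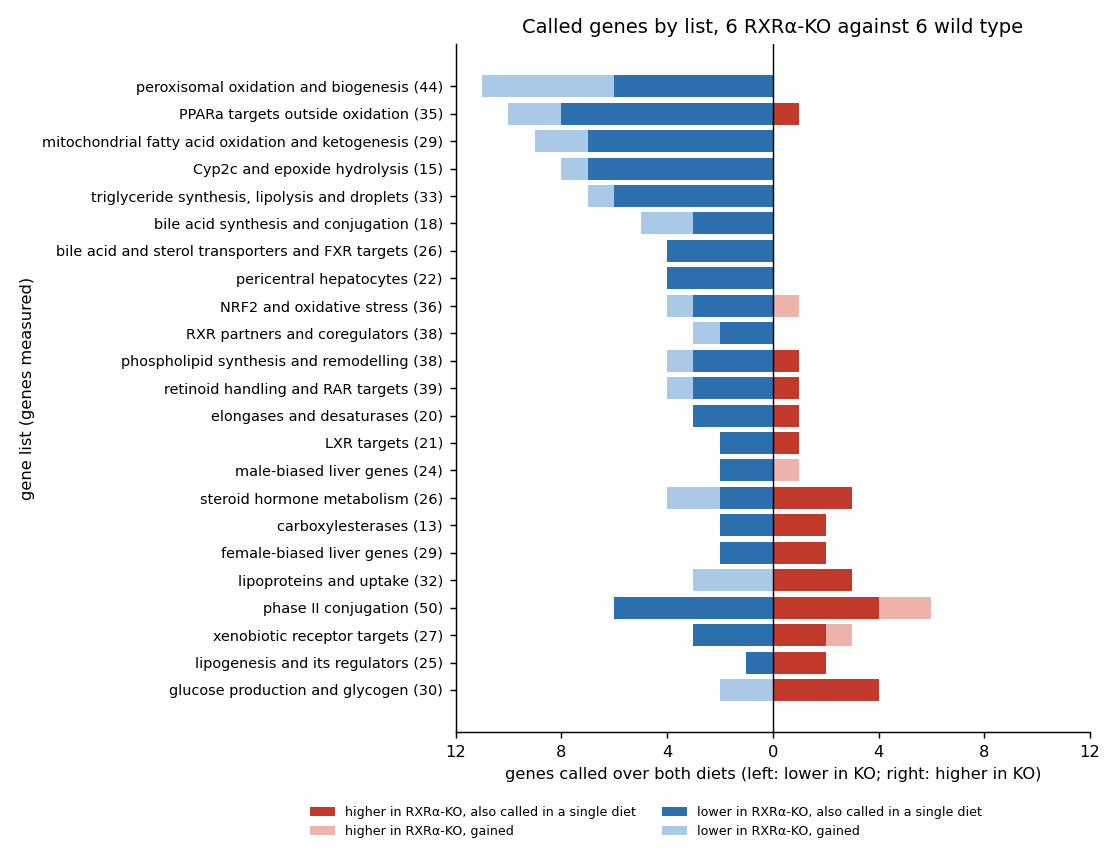
Number of genes called over both diets (horizontal axis) in each list with at least 3 called genes, with the genes measured in brackets on the vertical axis. Bars to the right are genes higher and bars to the left genes lower in RXRα-KO livers, and pale parts are gained genes. The peroxisomal list reaches 11 genes to the left, 5 of them gained, and none to the right.

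Of 38 RXR partners and coregulators 0 rose and 3 fell (7.89%, beside 3.38% of all genes called lower), and 1 to 5 were called when 1 array was left out. Pparg, the receptor of fat storage, which is low in liver, read 5.89 to 6.06 on RXRα-KO arrays and 6.32 to 6.63 on wild type arrays (-0.55 ± 0.06, adjusted p = 0.000458). Nr5a2, a receptor of bile acid synthesis genes, changed by -0.35 ± 0.09 (adjusted p = 0.0376). It was called, with 1 array left out, only without WT 3, WT_RA 3, KO_RA 1 or KO_RA 2 (adjusted p up to 0.0811 in the others), and its other 3 probe sets changed by -0.08 to 0.04. The third was the coactivator Ppargc1a. Of the other receptors set for naming, none passed the test. Rara, Rarb and Rarg changed by 0.09, 0.33 and 0.14, Nr1h3 (LXRα) by 0.14, Nr1h4 (FXR) by -0.04, Nr1i2 (PXR) by -0.21, Nr1i3 (CAR) by 0.03, Thra by 0.29 and Hnf4a by -0.07. Nr0b2, the repressor SHP induced by FXR, changed by -0.93 ± 0.26 (adjusted p = 0.0623).

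Averaging over diets with 6 arrays on each side gained 252 genes, 2.03% of those tested, 78 of them higher and 174 lower in RXRα-KO livers. These genes were chosen by the calls, so what follows describes them and tests nothing. The median SE of a gene was 0.08 for the change over both diets, against 0.12 for a single diet. The gained changes were small: their median size was 0.36, against 0.60 for the other called genes, with a range of 0.20 to 1.37, and 6 reached 1. Of the gained genes 216 had an unadjusted p under 0.05 in each diet and 36 in 1 diet. All 6 RXRα-KO arrays lay apart from all 6 wild type arrays on 100 of the 252. This was so on 309 of the 577 called genes and on 388 of all genes tested (3.13%). The median level of the gained genes, 7.94, was above the 6.73 of all genes. The 2 calls nearest the threshold inside it were 2010003K11Rik (-0.57, adjusted p = 0.0495) and Eif4g3 (-0.26, 0.0497), and the nearest outside were Slc10a2 (-2.15, 0.0501) and Pde6h (-0.57, 0.0501). Of the fits that left out 1 array, 2010003K11Rik was called only without WT 2 or KO_RA 1 (adjusted p up to 0.104 in the others), and Eif4g3 only without WT 3 or KO_RA 2 (up to 0.122).

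**Figure D3:**
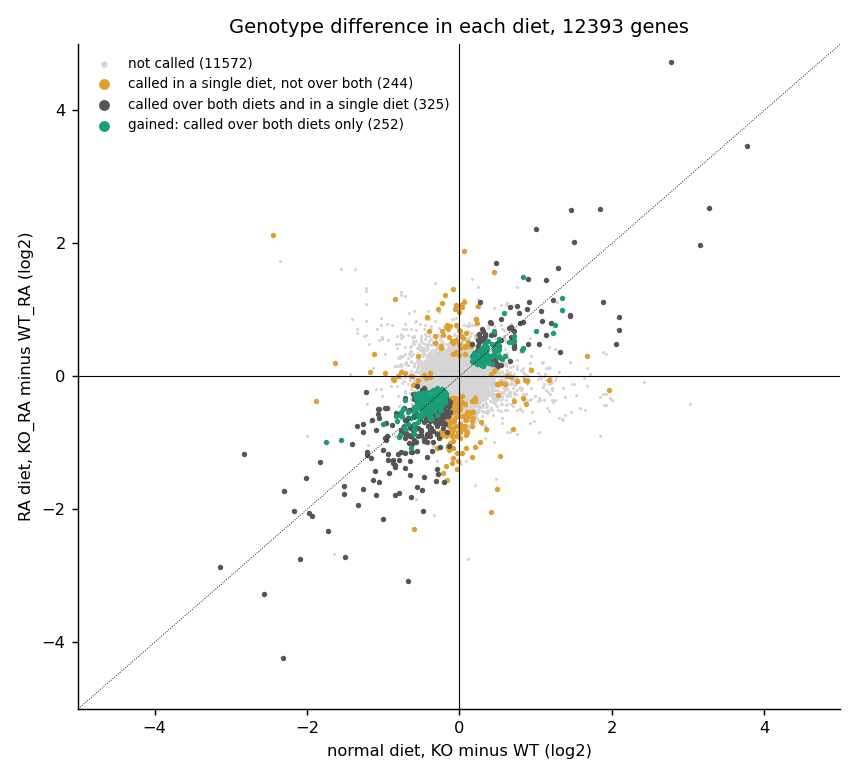
Genotype difference on the normal diet (horizontal axis, KO minus WT, log2) and on RA (vertical axis, KO_RA minus WT_RA, log2) for 12393 genes. Green points are the 252 gained genes and dark points the 325 genes called over both diets and by a single-diet contrast. Orange points are the 244 called by a single-diet contrast but not over both diets, and the dotted line marks equal differences. The green points lie near the dotted line and closer to 0 than the dark points.

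The gained calls often depended on single arrays. Of the 252, 59 were called in all 12 fits that left out 1 array, against 285 of all 577 called genes, the gained ones included. Genes that no single diet called are the weaker calls by choice, so a lower share is in part built in. Without KO 1 and WT_RA 3, 120 of the 252 were still called and 98 were still gained. The number gained was 139 to 167 without WT 1, WT_RA 1, WT_RA 2, KO 3 or KO_RA 3 and 383 without WT 3. A part of the 59, those named for their size or as members of a list, is given with values.

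Foxa1, a pioneer factor that opens liver enhancers, read 7.39, 7.55 and 7.06 in KO and 6.70, 7.06 and 6.87 in KO_RA, against 7.94, 8.55 and 7.89 in WT and 7.42, 7.62 and 8.32 in WT_RA. The sides overlapped only between 7.42 and 7.55, and the change was -0.85 ± 0.16 (adjusted p = 0.0106), against single-diet adjusted p of 0.136 and 0.0527. Rasgrp2, an exchange factor for small GTPases, read 8.15 to 8.62 (median 8.27) on RXRα-KO arrays, against 6.80 to 7.97 (median 7.44) on wild type arrays, without overlap (0.85 ± 0.18, adjusted p = 0.0173). Its probe sets did not all move alike, with 0.83 ± 0.17 at one and 0.11 ± 0.08 at a dimmer one. Pfn2, an actin-binding profilin, rose by 1.01 ± 0.21 (adjusted p = 0.0183, with 0.41 ± 0.12 at a dimmer probe set) and Fam126b fell by 0.83 ± 0.17 (adjusted p = 0.0143), both with overlap.

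In the oxidation lists the gained genes that kept their call were Hsd17b4, Acot12 and Pxmp4 of the peroxisomal list and Etfb of the mitochondrial list. Hsd17b4, the bifunctional enzyme of peroxisomal chain shortening, read 10.95 to 11.22 (median 11.05) on RXRα-KO arrays, against 11.27 to 11.61 (median 11.47) on wild type arrays, without overlap (-0.38 ± 0.08, adjusted p = 0.0135), with -0.48 ± 0.10 at its other probe set. Etfb, a subunit of the flavoprotein that takes electrons from acyl-CoA dehydrogenases, read 11.51 to 11.75 on RXRα-KO arrays and 11.77 to 12.13 on wild type arrays (-0.33 ± 0.07, adjusted p = 0.0148). Pxmp4, a peroxisomal membrane protein, changed by -0.54 ± 0.10 with overlap. Acot8, a peroxisomal thioesterase, changed by -0.36 ± 0.08 and was not called without KO_RA 3 (adjusted p = 0.0527). Mgll, the lipase that completes triglyceride breakdown, read 8.62 to 9.03 on RXRα-KO arrays and 9.23 to 10.12 on wild type arrays (-0.67 ± 0.14, adjusted p = 0.0174), and 1 of its 3 other probe sets, a dimmer one, changed by 0.04 ± 0.07.

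The acute phase, complement, retinoid and steroid lists also held gained genes that kept their call. Saa4, the constitutive serum amyloid, changed by -0.44 ± 0.08 (adjusted p = 0.00736). It was the only called gene of 35 in the acute phase list (2.86%, beside 4.66% of all genes). Mbl1, a mannose-binding lectin of complement, changed by -0.50 ± 0.10 (adjusted p = 0.0149). With Mbl2 it made up the 2 called genes of 37 in the complement and coagulation list (5.41%). Mbl2 (-0.45 ± 0.10) was not called without WT_RA 1, WT_RA 2, KO_RA 1 or KO_RA 3 (adjusted p up to 0.0562). Rdh9, a retinol dehydrogenase, read 8.58 to 9.33 on RXRα-KO arrays and 9.41 to 9.89 on wild type arrays, without overlap (-0.65 ± 0.13, adjusted p = 0.012). Akr1c13, a hydroxysteroid dehydrogenase, changed by -0.45 ± 0.09 (adjusted p = 0.0149).

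**Figure D4:**
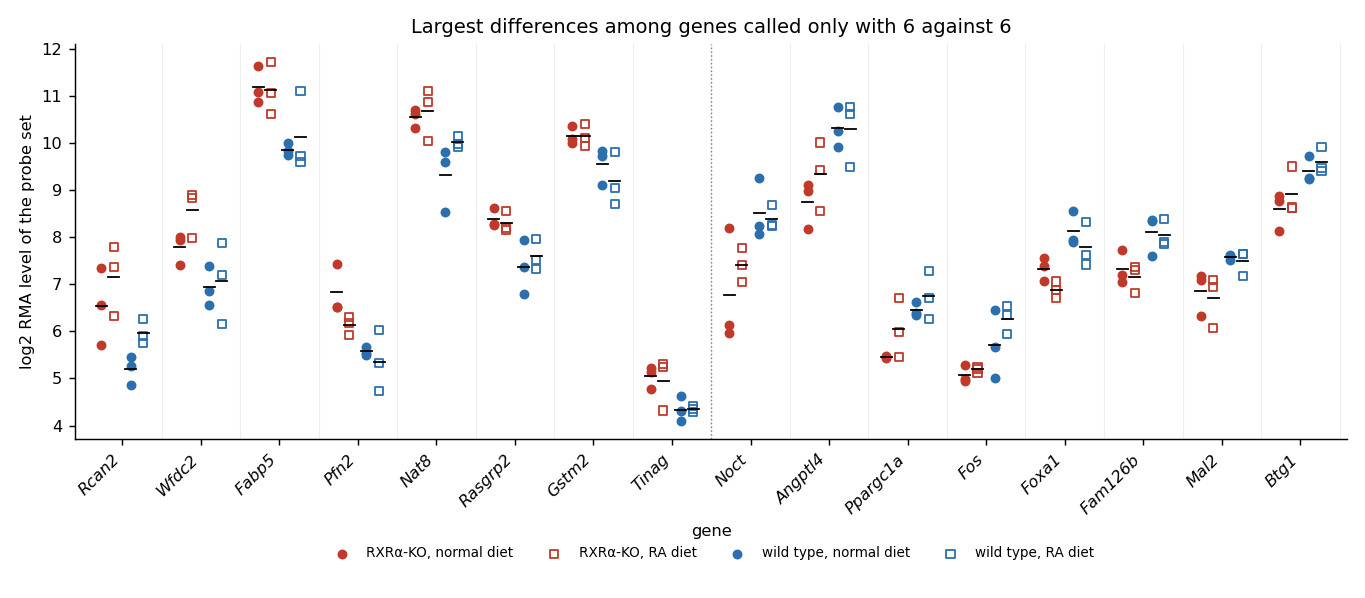
Log2 RMA level (vertical axis) of the 8 largest rises (left of the dotted line) and 8 largest falls among genes gained by 6 against 6, by gene. Red points are RXRα-KO arrays and blue points wild type arrays, filled for the normal diet and open for RA, and black bars are means of 3 arrays. Points of the 2 genotypes overlap for most of these genes, and for Rasgrp2, Gstm2 and Mal2 they do not.

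The largest gained changes had wider spreads. Rcan2, a regulator of calcineurin, read 7.35, 5.71 and 6.55 in KO and 7.36, 7.79 and 6.32 in KO_RA, against 4.87, 5.27 and 5.45 in WT and 5.76, 5.90 and 6.26 in WT_RA (1.26 ± 0.28, adjusted p = 0.0213, and 0.59 ± 0.17 at its other probe set). The call was absent without WT 1, WT_RA 1 or KO_RA 1 (adjusted p up to 0.0564). Fabp5, a fatty acid binding protein, rose by 1.17 ± 0.26 (1.40 ± 0.30 at its other probe set), a call absent without WT 2, WT_RA 1, WT_RA 2, KO 3 or KO_RA 1 (up to 0.0634). Gstm2, a glutathione transferase, rose by 0.77 ± 0.18 without overlap, a call absent without WT 1, WT_RA 2, KO 3, KO_RA 1, KO_RA 2 or KO_RA 3 (up to 0.083). Carmil1, an actin-capping regulator, changed by -0.74 ± 0.16, a call absent without WT 1 or KO 3 (up to 0.0519).

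The largest gained falls were those of Noct, Angptl4 and Ppargc1a. Angptl4, the secreted inhibitor of lipoprotein lipase and a PPARα target, read 9.11, 8.18 and 8.98 in KO and 8.56, 10.01 and 9.43 in KO_RA, against 10.76, 9.92 and 10.26 in WT and 10.61, 10.76 and 9.49 in WT_RA. The sides overlapped, and the change was -1.26 ± 0.29 (adjusted p = 0.0305, with -0.11 ± 0.05 at a dim probe set), a call kept, with 1 array left out, only without WT 2, WT 3, WT_RA 3, KO 1 or KO_RA 2 (up to 0.0763 in the others). Ppargc1a, the coactivator PGC-1α, changed by -0.86 ± 0.20 and by -0.70 to -1.19 at 4 dimmer probe sets. Its call was absent without WT 1, WT 2, WT_RA 1, WT_RA 2, KO 1, KO 2, KO 3, KO_RA 1 or KO_RA 3 (up to 0.0693). Noct, a deadenylase-related protein of the circadian cycle, had the largest gained change, -1.37 ± 0.36 (adjusted p = 0.0485). It was called in only 2 of the fits that left out 1 array, those without KO 1 and KO_RA 2, with an adjusted p up to 0.112 in the other 10. The other gained genes set for naming by size were the risers Wfdc2 (1.17), Nat8 (0.95), Tinag (0.65) and Anxa8 (0.63) and the fallers Fos (-0.85), Mal2 (-0.75), Btg1 (-0.74) and Dleu2 (-0.73). None of these 8 was called without KO 3 or without KO_RA 3, and each was called in only 3 to 7 of the 12 fits that left out 1 array (adjusted p up to 0.0927).

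The comparison over diets also left out 244 genes that a single diet had called, 40 on the normal diet, 203 under RA and 1 in both. Of these 141 had the same sign in both diets. Their SE did not shrink, with a median of 0.13 over both diets and of 0.13 in a single diet. The gene called in both was Rpgrip1, a ciliary protein of photoreceptors. It read 7.43, 6.36 and 6.23 in KO and 9.08, 9.14 and 8.84 in KO_RA, against 9.40, 8.99 and 8.98 in WT and 8.35, 5.78 and 6.58 in WT_RA. The genotypes stood apart in both diets and in opposite directions, and the change over both was -0.17 ± 0.73. This held at 1 of 4 probe sets: the other 3, all with means below the lower quartile, differed by -0.09 to 0.20 on the normal diet and by -0.10 to -0.04 under RA. Cyp8b1, the sterol 12α-hydroxylase of bile acid synthesis, was another (0.97 ± 0.39, adjusted p = 0.181), with 8.27 to 10.64 in WT_RA and 11.41 or more on every other array. These genes were chosen after their values were seen.

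The genotype by diet interaction asks where averaging over diets hides a difference. It called 1 gene (0.00807%), and 1446 genes had an unadjusted p under 0.05, among them 87 of the 577 called genes and 0 of the gained ones. The gained genes were chosen by a fit without an interaction term, so their count here is in part set by that choice. Leaving out 1 array gave 1 to 14 genes called for the interaction, the most without KO 1. The gene called with all arrays was Obp2a, a lipocalin. It read 4.77, 4.59 and 4.53 in KO and 4.19, 4.36 and 4.28 in KO_RA, against 5.28, 5.07 and 5.59 in WT and 7.77, 7.16 and 7.12 in WT_RA. The change over both diets was -1.88 ± 0.36 (adjusted p = 0.0103), made up of -0.68 on the normal diet and -3.08 under RA (interaction -2.39, adjusted p = 0.00503). Cyp26a1, the RA-degrading P450, read 8.43, 8.43 and 8.69 in KO and 11.39, 11.34 and 11.15 in KO_RA, against 7.49, 8.36 and 8.11 in WT and 12.54, 12.58 and 12.37 in WT_RA. The genotypes stood apart in both diets with opposite signs, the change over both diets was -0.34 ± 0.27 and the interaction missed the threshold (-1.73, adjusted p = 0.0566).

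In each list of markers of other cell types 0 or 1 gene was called. In whole liver, more cells of a type and more RNA per cell cannot be told apart. Of 41 interferon-stimulated genes 2 rose (4.88%, beside 1.27% of all genes) and 0 fell, with 38 of 41 changes above 0 (median 0.30). The median was 0.70 on the normal diet and 0.00 under RA. Usp18, a brake on interferon signalling, read 7.84, 8.79 and 8.01 in KO and 6.43, 6.27 and 7.10 in KO_RA, against 5.82, 5.77 and 6.77 in WT and 5.45, 6.20 and 6.06 in WT_RA (1.40 ± 0.30, adjusted p = 0.0201). Its call was absent without WT_RA 1 or KO_RA 3 (up to 0.0542). Isg20, an exonuclease, changed by 0.30 ± 0.06 (adjusted p = 0.0163), and was gained.

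Of 23 Kupffer cell and macrophage markers 0 were called by limma and 0 had an unadjusted p under 0.05, with 21 of 23 changes above 0 and a median of 0.37. Their summed level ranged from 12.39 to 14.14 on RXRα-KO arrays and from 12.03 to 13.36 on wild type arrays (log2 of the sum of linear levels), and 1 marker had a mean below the lower quartile of 4.94. On the normal diet the median change of the list was 1.11, and under RA it was -0.17. By array, the median deviation of the markers was highest on KO 2 (1.43). The median change of the list was 0.13 without KO 2, 0.63 without WT_RA 3 and 0.72 without both WT_RA 3 and KO 1. The interferon list likewise stood at 0.98 on KO 2, and its median change without that array was 0.12, against 0.45 without KO 1. Of 26 chemokine genes 1 was called (3.85%, beside 4.66% of all genes). It was Ccl9 (0.69 ± 0.14, adjusted p = 0.0171), with 10.65 to 11.38 on RXRα-KO arrays and 10.03 to 10.84 on wild type arrays. Of 24 endothelial markers 1 was called (4.17%), the gained Stab2, a scavenger receptor of sinusoids (0.62 ± 0.15, adjusted p = 0.031). It was not called without WT 2, WT 3, WT_RA 1, WT_RA 2, KO 2 or KO 3 (up to 0.0766). The lists for neutrophils, T or NK cells, B cells, stellate cells, cholangiocytes and erythroid cells held 0 called genes, with medians between 0.03 and 0.14. The part of these cells in the calls on Usp18, Isg20, Ccl9 and Stab2 was not tested.

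**Figure D5:**
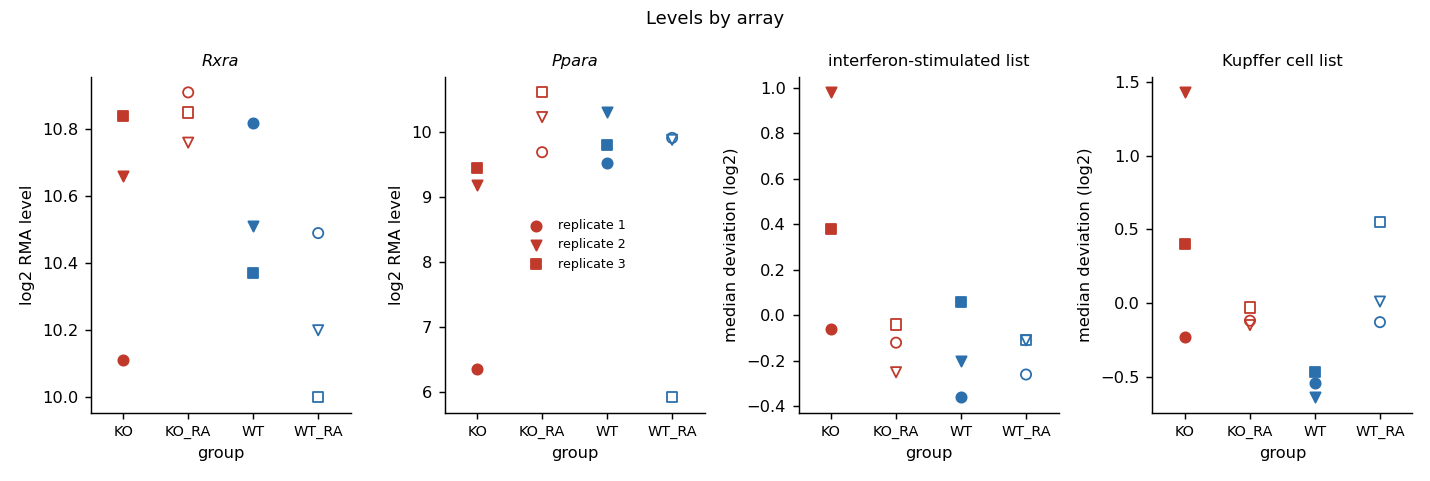
Log2 RMA level of Rxra and Ppara, and median deviation of the markers of the interferon-stimulated and Kupffer cell lists from their means over the arrays (vertical axes, log2), in each group (horizontal axis), with a symbol for each replicate. Ppara lies at 6.35 on KO 1 and 5.92 on WT_RA 3, and the lists reach 0.98 and 1.43 on KO 2.

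By position in the lobule, 4 of 22 pericentral markers fell (18.2%) and 0 rose: Rhbg, an ammonia transporter (-1.32 ± 0.18), Aldh3a2, Cyp2c29 and Ahr (-0.66 ± 0.14). Aldh3a2 was also counted among the PPARα targets and Cyp2c29 in the Cyp2c list. Of the 22 changes 12 were below 0 and 10 above, with a median of -0.07. The other Ahr probe set changed by 0.05 ± 0.10. Of 13 periportal markers 1 fell (7.69%, beside 3.38% of all genes called lower), Pigr, the carrier of dimeric immunoglobulins (-0.46 ± 0.07). Other pathways ranged on both sides of the 4.66% called over all genes. In oxidative phosphorylation 1 of 51 genes was called (1.96%), Ndufb3 (-0.41), with 45 of 51 changes below 0 and a median of -0.08. In the cell cycle list 1 of 45 was called (2.22%), Cks2, a subunit of cyclin-dependent kinases (-1.05 ± 0.12, and -1.01 ± 0.06 at its other probe set). In the NRF2 and oxidative stress list 1 rose and 4 fell of 36 (13.9%, and 2 to 5 genes called with 1 array left out), among them glutathione peroxidase Gpx1 (-0.48 ± 0.06, adjusted p = 0.000458). Of 30 genes of glucose production and glycogen 4 rose and 2 fell (20%, and 2 to 5 genes called with 1 array left out), with Ugp2, which makes UDP-glucose, at 0.70 ± 0.10 and at 0.61 to 0.97 on its other 4 probe sets. In the growth hormone and IGF list 2 of 27 genes were called (7.41%), Igfbp2 and Igfbp1, which went in opposite directions. Igfbp1 rose by 1.27 ± 0.32 (adjusted p = 0.0402), but was called, with 1 array left out, only without WT_RA 2 or KO_RA 1, and otherwise its adjusted p ran up to 0.0882.

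Of 21 genes listed from the study's text 20 were measured. The study names Cyp4f only as a family, and its members were listed here. The genes were chosen on these samples, so their counts are no independent evidence. Over both diets 1.27% of all genes were called higher and 3.38% lower. Of the 20 measured here 1 rose (5%), Apoa4, and 8 fell (40%). The fallers were 6 of the P450 genes above together with Abhd5 (-0.57 ± 0.09), which activates the triglyceride lipase, and Aldh3a2. The other 11 missed the test, among them Ptdss1, phosphatidylserine synthase (-0.28 ± 0.07, adjusted p = 0.0551), Cbr1, carbonyl reductase (-0.40 ± 0.12, 0.0864), and Cyp4f13 (-0.09 ± 0.07, 0.486).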

How the data were processed

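Liver RNA of 12 mice was measured, 1 array per mouse, and the sample titles gave the groups and replicate numbers. The authors deposited 1 log2 value per probe set and array. The submitters' processing notes name RMA and Partek 6.11, whereas MAS5 with a filter on detection stands in the paper's methods. The range of the values (2.85 to 14.36) and the like medians of the arrays fit RMA. Scanner files were not used here, and the number of arrays limits the precision. Probe sets were named from the platform annotation: 20380 carried 1 symbol, 691 several and 1555 none, and 64 were controls. For each of the 12393 genes the brightest probe set on average was kept, and 4956 genes had more than 1.

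The genotype was tested over all 12 arrays with limma 3.58.1 (R 4.3.3, lmFit and eBayes, two-sided) in a model of genotype plus diet, and the single-diet contrasts and the interaction in a model with 1 coefficient per group (8 residual degrees of freedom). P-values were adjusted by Benjamini-Hochberg over all genes. The scripts were tested on simulated data. The genes, lists and comparisons were chosen with earlier results of these data known. The genes named are those with the largest changes without overlap, the largest gained changes, up to 4 called members of a list, receptors set by name, genes of the study's text and the genes nearest the threshold. Gained list members, Creb3l3, further called list members and genes called by a single-diet contrast but not over both diets were named after their values were seen. Alternatives were a replicate block, trended and robust variances, a further quantile normalization, the mean of a gene's probe sets, array weights, leaving out arrays, the average of the single-diet effects, no diet term, separate fits for each diet, a filter on dim genes, and stricter thresholds.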

Additional observations from a re-analysis of the deposited data

Results flagged for a closer look

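Single arrays stood apart from the other 5 of their genotype, after the diet effect was taken off, for 18 of the genes named. Values here are the gap to the nearest array as a share of the range. The limit was 0.625 for 6 arrays, which chance passes in about 1 of 20 groups of independent values. The values compared had a diet effect taken off and were not independent, so that rate is approximate. How many groups were searched is not given here, so the number that chance alone would flag was not worked out. The levels printed still hold the diet effect, so a flagged array need not have the highest or lowest level. On KO 1, Ppara (6.35, share 0.709), Rxra (10.11, share 0.667) and Nr1h3 (8.33, share 0.873) were low, and Pparg (6.06, share 0.681) and Cyp2b10 (6.73, share 0.726) were high. On WT_RA 3, Ppara (5.92, share 0.831) and Cyp8b1 (8.27, share 0.692) were low, and Ces2a (9.83, share 0.644) and Fabp5 (11.10, share 0.662) were high. KO 1 and WT_RA 3 are also the arrays with a low 3′ Actb control. Among the other RXRα-KO arrays, Slc10a2 (7.29, share 0.706) and Pfn2 (7.44, share 0.657) were high and Cyp2c54 (8.44, share 0.64) low on KO 2. Gdpd3 was high on KO 3 (7.21, share 0.79) and Nat8 low on KO_RA 2 (10.04, share 0.636). Among the other wild type arrays, Nat8 was low (8.54, share 0.769) and Noct high (9.25, share 0.648) on WT 1. Prodh was high on WT 2 (10.86, share 0.639). Acaa1b (11.91, share 0.65) and Ces1e (8.64, share 0.771) were high on WT_RA 1 and Ccl9 was high on WT_RA 2 (10.84, share 0.693).

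The genotype difference itself differed between the diets for Obp2a, by a tested interaction of -2.39 (limma adjusted p = 0.00503). For Rpgrip1 and Cyp26a1 the 3 arrays of each group moved in opposite directions in the 2 diets, and their interactions of 4.57 and -1.73 missed the threshold (adjusted p = 0.0611 and 0.0566). Outside the gene table, 39 of 2246 probe sets with several or no gene symbols were called over both diets, 16 of 691 with several symbols and 23 of 1555 with none.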

How the results depend on the processing

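With all arrays 577 genes were called, 158 higher and 419 lower in RXRα-KO livers, with 252 gained and 1 interaction. A gene call at an adjusted p under 0.01 left 202 (56 and 146) with 111 gained, and a change of at least 1 left 73 (25 and 48) with 6 gained, by fewer genes passing. Array weights gave 1048 (371 and 677), 404 gained and 19 interactions. Leaving the diet out of the model gave 156 gained. The interaction called 5 genes with trended and robust variances, 6 with the mean of all probe sets and 12 without WT_RA 3 and KO 1. The cause of these shifts was not tested. Leaving out 1 array gave 323 to 724 called genes, 91 to 209 higher, 232 to 515 lower, 139 to 383 gained and 1 to 14 interactions.

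The replicate number was tried as a block, which gave 423 called genes, 407 of them shared with the fit without it, 189 gained and 2 interactions. The numbers name samples only: of 18 same-numbered pairs of arrays from different groups 5 had correlated deviations above 0.1 (range -0.46 to 0.27), and 1 of 12 arrays correlated best with its own number. No gene named changed its sign together with a call under any alternative. A filter on dim genes removed no call among them, array weights 1, the average of the single-diet effects 2, trended variances 5, the mean of probe sets 7, further quantile normalization 11, the block 11 and leaving out the diet 19.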

Other observations

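The lists not described so far are set beside the 4.66% of all genes called over both diets. Asns rose and Chac1, a glutathione-degrading enzyme induced by the same stress response, was lower (-0.69 ± 0.17, limma adjusted p = 0.039) among 38 genes of the unfolded protein and integrated stress response (5.26% called). Chac1 was called, with 1 array left out, only without WT 1, WT_RA 1 or KO 1, and its adjusted p was up to 0.0941 in the others. Of 7 measured aquaporins Aqp4 alone was called (14.3%), and all 7 changes were above 0 (median 0.16). Of 48 genes of amino acid breakdown and the urea cycle (4.17% called) 1 rose, Csad, and 1 fell, Prodh, proline dehydrogenase (-0.90 ± 0.13, adjusted p = 0.00137). Of 23 antigen presentation genes 0 were called, with 21 changes above 0 (median 0.24), and the list stood at 1.04 on KO 2. Its median was 0.44 on the normal diet and -0.01 under RA. Of 34 extracellular matrix genes 0 were called, with 32 changes above 0 (median 0.11, with 0.24 on the normal diet and 0.01 under RA). Male-biased liver genes had 1 riser and 2 fallers of 24 (12.5%), and female-biased ones 2 risers and 2 fallers of 29 (13.8%).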
